A study of Mus musculus with 2 samples.

Results

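Divergent promoters are stretches of genome from which a pair of protein-coding genes is transcribed in opposite directions, away from each other. Among 21532 mouse protein-coding genes whose strand was known, 747 such pairs had 5' ends no more than 1000 bp apart, and they took in 1486 distinct genes. The rule that picks the pairs uses the GRCm38 gene annotation alone and no measured value. It was, however, set with earlier results of these data known. In all, 8 genes stood in more than 1 pair, so 16 of the 747 pairs share a gene with another pair and are not independent of it. The region of a pair was the span between its 5' ends plus 1000 bp on either side. The genes set beside them were 17631 isolated genes, which have no other protein-coding 5' end within 5000 bp. Starts of noncoding genes were not considered. The remaining 2415 genes fell in neither class.

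The measurement was ChIP-seq of histone H3 trimethylated at lysine 4 (H3K4me3) in MEL cells, an immortalized mouse erythroleukaemia line. All material carried the same treatment, 2% dimethyl sulphoxide (DMSO) for 5 days, a textbook inducer of red cell maturation in this line. The 1 group held biological replicates 1 and 2, made from DNA fragments of 150 to 350 bp. No untreated cells were analysed, so none of the values below is a change with DMSO.

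H3K4me3 is laid down by SET1 and MLL methyltransferase complexes on nucleosomes beside active and poised transcription start sites, and the start itself is usually depleted of nucleosomes. At a divergent promoter a single nucleosome-free stretch serves a start site on each side, and both starts are commonly set in a shared CpG island. Many of the genes arranged this way are housekeeping genes of DNA repair, mitochondrial function and RNA processing.

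Replicate 1 held 48026 peaks and replicate 2 held 46950, of which 1361 (2.83%) and 1248 (2.66%) overlapped the region of a pair. Read counts were not used here, so the depth of either replicate is unknown. Each peak carries an enrichment value given by the authors on a scale they did not state. Values of the replicates are set side by side as if on a common scale, which was not tested. Of 7 genes that mark red cells, 6 (Klf1, Nfe2, Sptb, Alas2, Gypc and Car1) had a peak within 1000 bp of their 5' end in both replicates. Gata1, the erythroid master regulator, did not meet this at its annotated 5' end, and nor did any of 8 markers of macrophages, granulocytes, B cells and T cells.

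Of the 747 pairs, 686 (91.8%, 95% Wilson interval 89.6 to 93.6) had a peak in both replicates and are called marked below. The spans of 8 pairs between 5' ends are printed here to show what lies between the genes of strongly marked and of unmarked pairs. The first 4 belong to the named marked pairs of highest enrichment value whose span was at least 40 bp and lay within 1 promoter entry. The other 4 belong to the named unmarked pairs with the shortest spans of at least 20 bp, chosen the same way. All are RefSeq sequences of assembly GRCm38.p6, read 5′ to 3′ on the + strand from the 5' end of the gene on the - strand to the 5' end of the gene on the + strand, with CpG dinucleotides in capitals. They lie at chr2:132253180-132253338 (Pcna/Cds2), chr4:107253533-107253593 (Lrrc42/Hspb11), chr19:5424979-5425144 (Drap1/AI837181), chr9:122951000-122951081 (1110059G10Rik/Kif15), chr2:59160828-59160850 (Ccdc148/Pkp4), chrX:144688180-144688209 (Trpc5/Rtl4), chr19:10001633-10001669 (Best1/Rab3il1) and chr12:86734303-86734345 (Angel1/Lrrc74a).
Pcna/Cds2: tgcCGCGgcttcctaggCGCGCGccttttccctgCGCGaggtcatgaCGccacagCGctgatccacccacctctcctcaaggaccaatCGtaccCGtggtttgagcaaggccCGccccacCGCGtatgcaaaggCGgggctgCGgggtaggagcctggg
Lrrc42/Hspb11: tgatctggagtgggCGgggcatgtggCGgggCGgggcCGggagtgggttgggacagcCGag
Drap1/AI837181: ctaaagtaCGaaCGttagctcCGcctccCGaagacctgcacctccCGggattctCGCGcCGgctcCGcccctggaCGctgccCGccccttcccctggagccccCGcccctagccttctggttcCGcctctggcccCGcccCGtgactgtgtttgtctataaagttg
1110059G10Rik/Kif15: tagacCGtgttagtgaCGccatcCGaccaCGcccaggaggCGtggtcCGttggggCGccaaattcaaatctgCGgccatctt
Ccdc148/Pkp4: ggCGggCGggCGggctggCGgCG
Trpc5/Rtl4: gctctctctctctcaacctgagacccttca
Best1/Rab3il1: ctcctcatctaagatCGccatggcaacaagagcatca
Angel1/Lrrc74a: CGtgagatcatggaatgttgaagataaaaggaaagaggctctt
The 4 marked spans held 16, 5, 15 and 8 CpG dinucleotides in 159, 61, 166 and 82 bases, in the order printed. The unmarked spans held 5, 0, 1 and 1 in 23, 30, 37 and 43 bases. The way the spans were chosen made the marked ones longer, so these counts cannot be compared directly. The Ccdc148/Pkp4 span is a run of CpG-rich repeats with a GC content of 95.7%, so a CpG-rich span was also found at an unmarked pair. Over the pairs whose span was at least 20 bp and lay in 1 promoter entry, the median span held 9.19 CpG per 100 bases in 411 marked pairs and 4.07 in 28 unmarked ones.

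Almost every divergent promoter carried the mark in these cells, while most isolated genes did not. Counted by their own 5' end ± 1000 bp, so that the longer region of a pair gave no advantage, 1362 of 1486 genes of pairs were marked in both replicates (91.7%, interval 90.1 to 93.0). Over all protein-coding genes the share was 47.1%. Among isolated genes it was 40.7% (7178 of 17631, interval 40.0 to 41.4). The difference between genes of pairs and isolated genes was 50.9 percentage points, and it was 50.7 points in each replicate taken alone. The intervals cover counting error only, and genes of a pair share their window in large part, so a peak of the partner also counts for the gene. Which partner a shared peak belongs to was not tested.

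Both replicates called nearly the same pairs. Replicate 1 marked 686 pairs and replicate 2 marked 690, and no pair was marked in replicate 1 alone. The 4 pairs marked in replicate 2 alone had weak peaks at their regions. Their enrichment values there were 4.40 for Asphd1/Sez6l2, 3.37 for P3h4/Fkbp10, 4.08 for Rnf151/Rps2 and 4.73 for Elapor1/1700013F07Rik, against a median of 13.997 over marked pairs. Rps2 encodes a protein of the small ribosomal subunit and is the only pair member among cytosolic ribosomal protein genes whose pair was not marked. Its peak in replicate 2 lay at the edge of the region. That peak began a domain of 5551 bp that ended 6297 bp beyond the annotated 5' end of Rps2, and the value covers only the peak at the region. In 684 of the 686 marked pairs each gene was also marked within 1000 bp of its own 5' end.

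The mark was wider at divergent pairs, while peak heights differed little from those of isolated genes. The median enrichment value of marked pairs was 13.4 in replicate 1 and 14.0 in replicate 2 (mean 13.7 ± 0.419 SD, n = 2). Marked isolated genes had 12.1 and 13.7 (mean 12.9 ± 1.10 SD, n = 2). Pairs were higher by 1.30 in replicate 1 and by 0.341 in replicate 2, and the gap between the means is smaller than the spread between the replicates of isolated genes. The domain, a chain of peaks with no more than 1000 bp between neighbours, had a median width of 2683.5 and 2649 bp at marked pairs (mean 2666 ± 24.4 SD, n = 2). At isolated genes it was 2135 and 2122 bp (mean 2128.5 ± 9.19 SD, n = 2). Pairs were wider by 548.5 and 527 bp within the replicates, more than the spread between them. The size of the lead rests on joining peaks: without joining, the widest peak alone had a median of 1481 bp at pairs and 1359 bp at isolated genes. With 2 replicates of 1 group no test between samples was possible.

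The extra width of pairs lay on the side that, at an isolated gene, is upstream and free of other protein-coding 5' ends. At isolated genes the domain ran a median of 671 and 668 bp upstream of the 5' end and 1384 and 1383 bp downstream into the gene. At pairs it ran 1206.5 and 1185.5 bp into the gene on the - strand and 1237 and 1218.5 bp into the gene on the + strand. Each arm of a pair was thus longer than the upstream arm of an isolated gene and shorter than its downstream arm, by more than the spread between the replicates in each case. The domain reached at least 500 bp beyond both 5' ends in 88.0% and 89.1% of marked pairs. Without joining, the domain was the widest unbroken peak alone, so a peak on the other side of the start was left out. On that measure the arms of pairs were 909.5 and 965.5 bp (means of the replicates). Those of isolated genes were 5.5 bp upstream and 1232.5 bp downstream. The 5.5 bp is thus no measure of the upstream mark, as peaks covered 62.3% and 62.9% of marked isolated genes 500 bp upstream. With joining, the domain reached at least 500 bp on both sides of the 5' end at 62.4% and 63.3% of marked isolated genes.

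**Figure D1:**
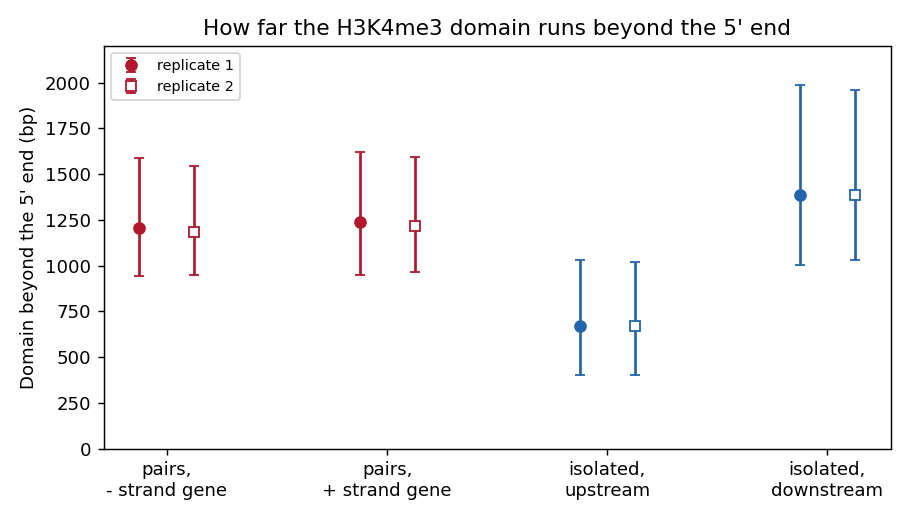
Length of the H3K4me3 domain beyond the 5' end (y axis, bp) into the gene on the - strand and the gene on the + strand of 686 marked pairs, and upstream and downstream of 7178 marked isolated genes. Points are medians and bars run from the lower to the upper quartile over pairs or genes, with replicate 1 filled and replicate 2 open. Both arms of pairs sit near 1200 bp, between the upstream median of 671 bp and the downstream median of 1384 bp of isolated genes in replicate 1.

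Because the strands of a pair carry no order, the arms were also sorted by length. The shorter arm of a pair had a median of 1013 and 1007.5 bp, against 636 bp in each replicate at isolated genes. The longer arm had 1486 and 1456.5 bp, close to the 1458.5 and 1454.5 bp of isolated genes. Pairs and isolated genes therefore differed mainly in the shorter arm. Within pairs the lengths of the arms hardly followed each other, with a Spearman rho of 0.094 and 0.062 over 686 pairs, as a description across pairs of the same libraries. At isolated genes the upstream and downstream arms gave 0.096 and 0.077 over 7178 genes, so this is not particular to pairs. The longer arm lay on the same side in both replicates in 595 of 686 pairs (86.7%).

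Coverage by peaks, which involves no joining, showed the same symmetry. Measured from each 5' end, a peak covered 91.8% and 93.6% of marked pairs 500 bp into the gene on the - strand and 91.5% and 92.9% at that distance into the gene on the + strand. At isolated genes 62.3% and 62.9% were covered 500 bp upstream and 85.2% and 90.9% were covered 500 bp downstream. At 1000 bp the contrast was larger, with 67.5% and 68.4% of pairs covered on the - strand side and 24.4% and 23.9% of isolated genes covered upstream. Between the arms lay a dip, in which only 38.2% and 49.1% of pairs were covered at the midpoint. A dip was also present at the 5' end of isolated genes, where 43.1% and 61.5% were covered.

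**Figure D2:**
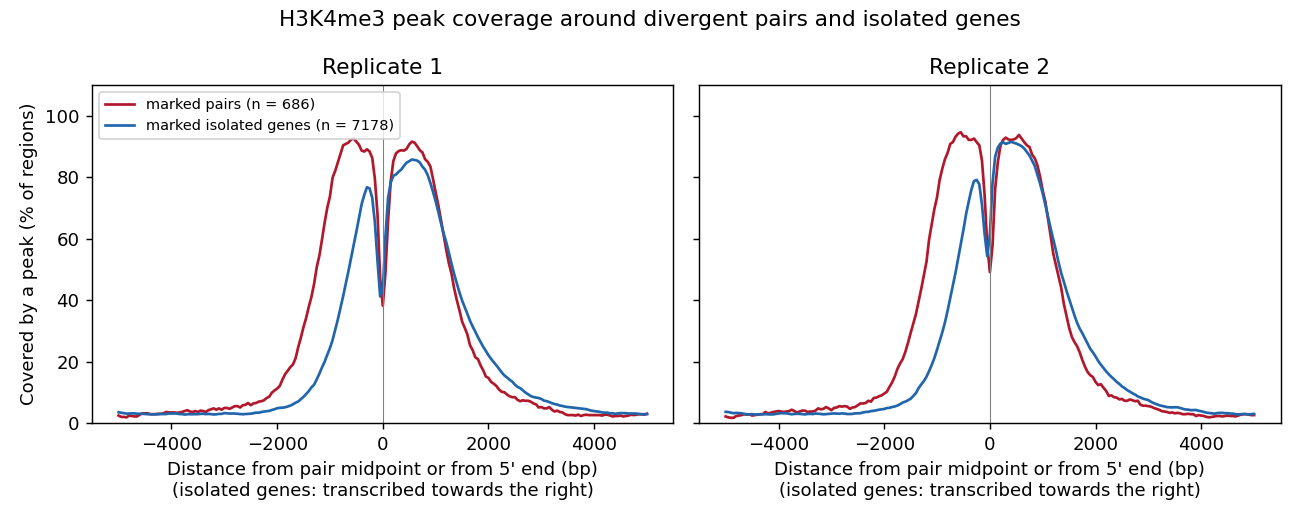
Share of 686 marked pairs (red) and 7178 marked isolated genes (blue) covered by a peak (y axis, %) at each distance from the midpoint of the pair or from the 5' end of the isolated gene (x axis, bp). Isolated genes are read in the direction of transcription and pairs on the + strand. Pairs show shoulders of like height on both sides of a central dip, whereas the upstream shoulder of isolated genes peaks at 76.7% and 79.1% and falls within 1000 bp.

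The mark therefore often stood as 2 peaks facing each other. The region was overlapped by 2 peaks in 67.2% and 62.0% of marked pairs, 1 peak in 16.8% and 27.8%, and 3 in 14.3% and 9.33%. Marked isolated genes also had a median of 2 peaks in their window in both replicates, so this number is not particular to pairs. A gap between peaks lay at the midpoint in 59.8% and 49.0% of pairs, with a median length of 200 and 174 bp. At the 5' end of isolated genes such a gap was found in 45.2% and 29.3%, with a median length of 203 and 163 bp. Pairs were read between the starts and isolated genes at the start itself, so these shares are not like measures. The highest summit lay between the 5' ends in 4.37% and 4.08% of pairs. That span is short, with a median of 98.5 bp against a domain of 2683.5 and 2649 bp. Whether the share departs from what this length alone gives was not tested. The highest summit lay beyond the same 5' end in both replicates in 439 of 686 pairs (64.0%), beside 86.7% for the longer side of the domain.

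In replicate 1 a single peak covered both 5' ends in 157 of 686 marked pairs (22.9%), and in replicate 2 in 238 (34.7%). This held in both replicates for 142 pairs (20.7%, interval 17.8 to 23.9). No peak covered either 5' end in 278 pairs (40.5%) of replicate 1 and 196 pairs (28.6%) of replicate 2, and in both replicates for 174 pairs (25.4%). Counted gene by gene, 41.0% of the marked genes of pairs had their own 5' end under a peak in both replicates, against 40.9% of marked isolated genes and 42.5% of all marked genes. In replicates 1 and 2 taken alone the shares were 44.0% and 57.0% at marked genes of pairs and 43.1% and 61.5% at marked isolated genes. On the count in both replicates the genes of pairs did not stand apart, while in replicate 2 alone their share was lower. The split into peaks depends on the deposited set: in an older set on the build mm9, analysed on another annotation, 92.2% of marked pairs had both 5' ends under 1 peak and 93.6% of marked isolated 5' ends were covered.

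Spacing between the 5' ends had quartiles of 48 and 233 bp. Pairs up to 500 bp apart were marked at like rates, namely 93.8% of 373 pairs at 0 to 100 bp, 92.2% of 243 above 100 and up to 300 bp and 95.5% of 67 above 300 and up to 500 bp. Above 500 and up to 1000 bp, 48 of 64 pairs were marked (interval 63.2% to 84.0%), an interval that lies below those of the shorter classes. Beyond the limit of 1000 bp, by their own windows, both genes were marked in 54 of 84 pairs above 1000 and up to 2000 bp (64.3%) and in 115 of 272 pairs above 2000 and up to 5000 bp (42.3%). A single gene of the pair was marked in none of the 683 pairs up to 500 bp apart, in 2 above 500 and up to 1000 bp, in 15 above 1000 and up to 2000 bp and in 98 above 2000 and up to 5000 bp. Windows of close genes overlap, which by itself gives close genes the same call.

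Enrichment value did not follow spacing, with a Spearman rho of -0.016 and -0.036 over 686 marked pairs. Coverage of the 5' ends differed between the classes. Close 5' ends can both lie in 1 gap between peaks, while ends further apart than the gap cannot. The gap at the midpoint had a median of 200 and 174 bp, and its part in this difference was not tested. No peak covered either 5' end in 50.3% and 33.4% of marked pairs at 0 to 100 bp, in 12.5% and 9.38% above 300 and up to 500 bp, and in 22.9% and 12.5% above 500 bp. In the closest class both 5' ends were under 1 peak in 29.4% of pairs in replicate 1 and 45.4% in replicate 2. The mean covered share of the span was 35.5% and 53.3% at 0 to 100 bp and 69.3% and 73.6% above 500 and up to 1000 bp. The counts are small at wide spacing, with 64 and 48 marked pairs in the last 2 classes.

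**Figure D3:**
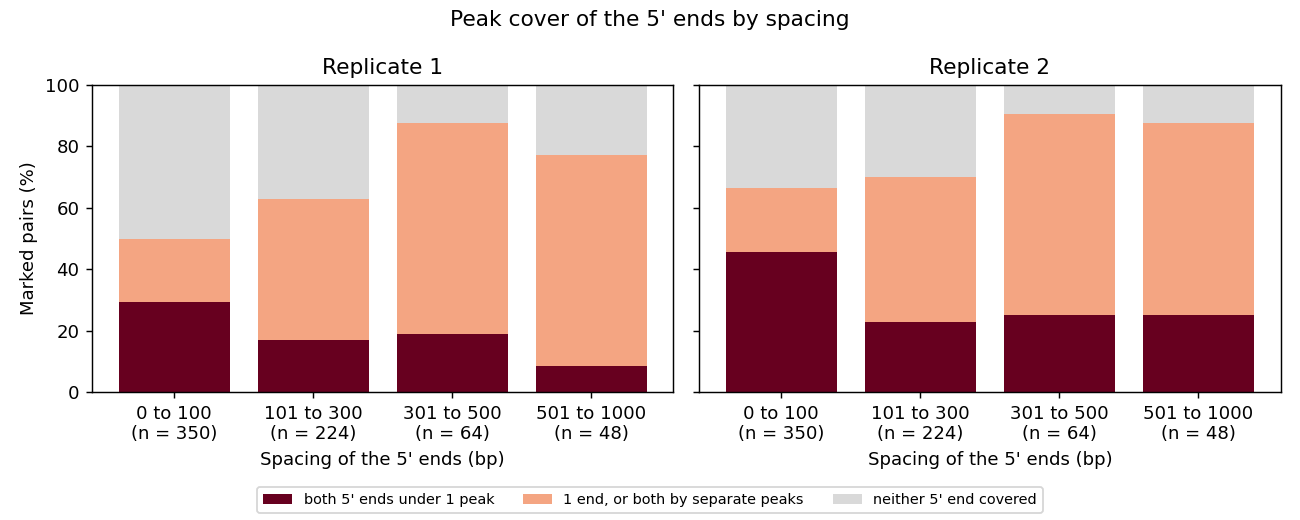
Marked pairs (y axis, %) whose 5' ends are both under 1 peak, partly covered or covered by separate peaks, or not covered, by spacing of the 5' ends (x axis, bp) in replicate 1 (left) and replicate 2 (right). The uncovered share is 50.3% and 33.4% at 0 to 100 bp, 12.5% and 9.38% above 300 and up to 500 bp, and 22.9% and 12.5% above 500 bp.

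The pairs nearest to the limit of the rule were mixed on its inner side and on its outer side. Just inside it, Pcgf2/Psmb3 at 1000 bp was marked (8.93 and 12.6 in replicates 1 and 2), Ush1g/Otop3 at 995 bp was not, and Haghl/Ccdc78 at 994 bp was (11.0 and 15.005). Just outside, Serpina7/4930513O06Rik at 1007 bp was unmarked, and Myd88/Acaa1a at 1010 bp had 11.5 and 13.7. Pairs whose 5' ends overlap head to head by 1 to 1000 bp do not meet the rule. There were 425 of them, and 369 were marked (86.8%, interval 83.3 to 89.7).

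Divergent promoters were much richer in CpG than isolated ones, and the difference in marking remained within CpG classes. RefSeq promoter sequences of 300 bases, 250 before to 50 after a start, were matched for 1263 of 1486 genes of pairs (85.0%) and 14217 isolated genes (80.6%). The matched start lay within 250 bp of the 5' end for 1117 of these genes of pairs and 11739 of these isolated genes. For the others CpG was read away from the 5' end at which marking was scored, and the effect of this was not tested. The median ratio of observed to expected CpG was 0.840 at genes of pairs, 0.510 at isolated genes and 0.577 over all genes. A ratio of at least 0.5 was reached by 90.0% of genes of pairs and 50.6% of isolated genes. Within these CpG-rich promoters 94.99% of genes of pairs (1080 of 1137, interval 93.6 to 96.1) and 68.2% of isolated genes (4908 of 7198, interval 67.1 to 69.3) were marked, a difference of 26.8 points where it was 50.9 over all genes.

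At a ratio below 0.25, where promoters are CpG-poor, 32 of 56 genes of pairs were marked (57.1%, interval 44.1 to 69.2) against 6.33% of 4422 isolated genes. At 0.75 or more, 795 of 830 genes of pairs (95.8%) and 74.8% of 4290 isolated genes were marked. The share rose with CpG content in both kinds of gene and was higher for genes of pairs in each of the 4 classes. The window of a CpG-poor gene in a pair also takes in the promoter of its partner, and the part of the partner's CpG content was not tested. Arms differed too within the richest class. Here they were counted from each gene's own 5' end, so the upstream arm in a pair includes the span to the partner. The upstream arm was 1371 and 1337 bp at genes of pairs and 788 and 784 bp at isolated genes. The downstream arm was shorter at genes of pairs, at 1260 and 1229 bp against 1514 and 1492 bp.

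**Figure D4:**
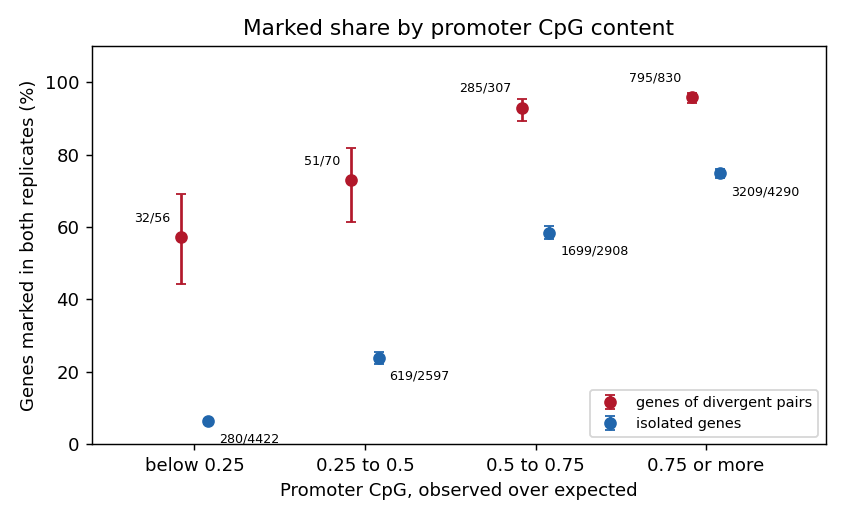
Share of genes marked in both replicates (y axis, %) by the ratio of observed to expected CpG in the promoter (x axis) for genes of divergent pairs (red) and isolated genes (blue). Bars are 95% Wilson intervals and labels give marked over all genes. Genes of pairs lie above isolated genes in each class, from 57.1% against 6.33% below 0.25 to 95.8% against 74.8% at 0.75 or more.

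Short sequence words were counted on both strands of the same 300 bases. TATAAA, the core of the TATA box, was in 5.70% of promoters of pairs, 14.5% of isolated promoters and 13.3% of all promoters. CGGAAG, which lies within the core recognised by ETS factors, was in 44.6%, 18.7% and 21.5%, and GGAAGT, which can overlap it, was in 33.4%, 23.8% and 25.1%. GGGCGG, the GC box, was in 65.3%, 44.0% and 46.3%. CCAAT, the CCAAT box, was in 45.6%, 38.6% and 39.2%, and GCGCATGC, a word of the NRF1 site, was in 6.41%, 3.33% and 3.60%. Isolated genes are mostly unmarked, and among marked genes the shares lay closer together. TATAAA was in 5.07% of marked promoters of pairs and 6.84% of marked isolated ones, GGGCGG in 66.8% and 68.9%, GCGCATGC in 6.79% and 6.25%, CCAAT in 44.3% and 39.4%, GGAAGT in 35.0% and 28.4% and CGGAAG in 47.0% and 33.6%. Among genes of pairs, CGGAAG was in 47.0% of 1163 marked and 16.0% of 100 unmarked promoters, and TATAAA in 5.07% and 13.0%. A match is a string of letters, not a bound site, and GGGCGG holds a CpG, as does CGGAAG and as does GCGCATGC, while CpG content differed between these sets.

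Among pairs known from textbooks, 12 met the rule and all 12 were marked, beside 91.8% of all pairs. The sliding clamp of DNA replication, Pcna, with Cds2, an enzyme of phospholipid synthesis, lay 158 bp apart and had enrichment values of 26.5 in replicate 1 and 27.5 in replicate 2. Emc8, of the ER membrane protein complex, with Cox4i1, a subunit of cytochrome c oxidase, had 27.8 and 27.3. Mcm4, of the replicative helicase, with Prkdc, the catalytic subunit of the DNA-dependent protein kinase, had 17.3 in both. These stood above the median pair, and the replicates differed little at each.

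Other textbook pairs lay near or below the median. Atm, the DNA damage kinase, with Npat, an activator of histone genes, had 15.6 and 13.9. Brca1, of homologous recombination, with Nbr1, an autophagy receptor, had 10.04 and 11.7. Trp53, which encodes p53, and Wrap53, on the other strand, had 10.6 and 10.4. The last had a domain of 4971 and 4792 bp that ran more than 2000 bp into each gene, so a modest peak stood on a wide domain.

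The remaining textbook pairs are of metabolism, translation, histones and antigen processing. Hadha and Hadhb, which encode both subunits of the mitochondrial trifunctional protein, had 8.87 and 11.0, and a single peak covered both 5' ends in each replicate. Mrps12, of the mitochondrial ribosome, with Sars2, the mitochondrial seryl-tRNA synthetase, had 11.8 and 12.6 on a short domain of 1877 and 1788 bp. Aimp2, a scaffold of tRNA synthetases, with Pms2, of mismatch repair, had 12.8 and 11.8. Psmb9, of the immunoproteasome, with Tap1, the peptide transporter, had 12.5 and 13.7. Urod/Hectd3 had 14.3 and 15.3, and the histone pair H2bc9/H3c7 had 15.04 and 13.2.

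**Figure D5:**
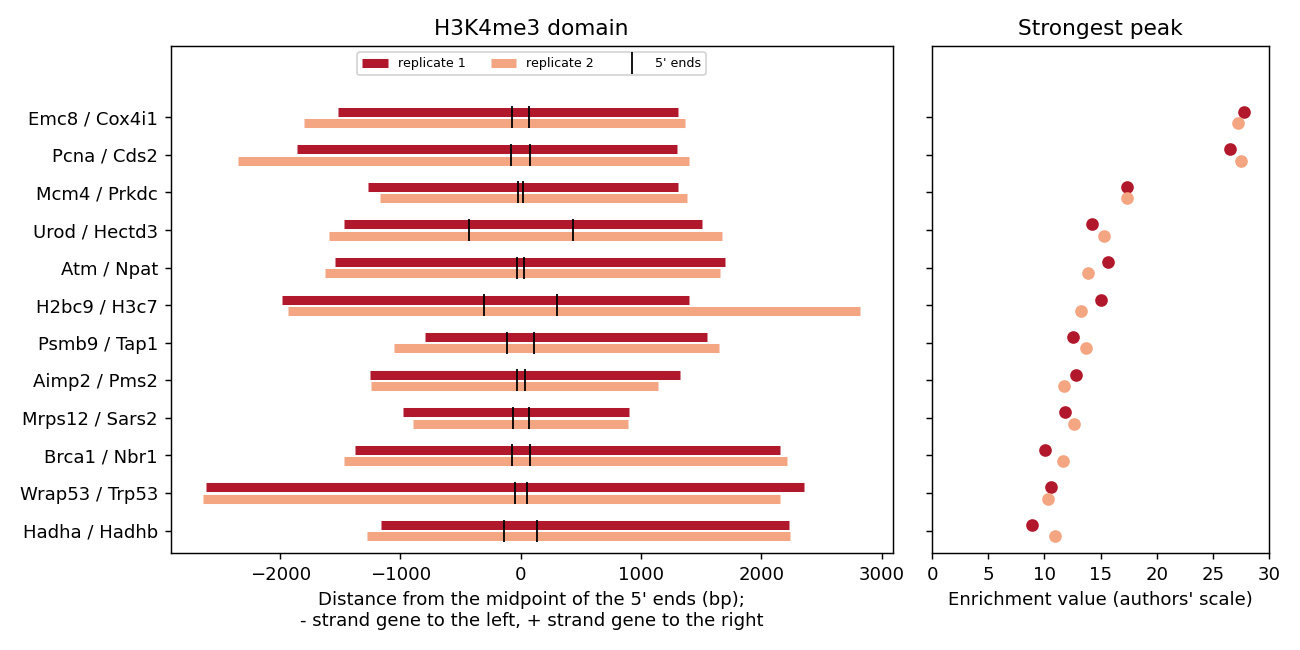
Domains (left, bp from the midpoint of the 5' ends, black ticks) and enrichment values of the strongest peak (right, authors' scale) of 12 textbook divergent pairs in replicate 1 (dark) and replicate 2 (light), ordered by mean value. The domains extend past both 5' ends in each pair and replicate, and values run from 8.87 at Hadha/Hadhb to 27.8 at Emc8/Cox4i1 in replicate 1.

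Further textbook pairs fell outside the rule because their annotated 5' ends overlap or lie too far apart. Hspd1/Hspe1, Ppat/Paics, Surf1/Surf2 and Uros/Bccip were marked, with values from 11.8 to 14.5 in replicate 1 and from 13.4 to 16.02 in replicate 2. The type IV collagen pairs Col4a1/Col4a2, Col4a3/Col4a4 and Col4a5/Col4a6 were unmarked in both replicates. These encode basement membrane collagens, and they show that a divergent arrangement was found without the mark.

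Over all genes, 1486 of 21532 (6.90%) lay in a divergent pair, and counts of list members in pairs are read against that share, with no test. Of 29 genes of heme synthesis and iron, 2 lay in a pair (6.90%), and of 23 erythroid transcription factor genes, 3 did (13.0%). None of 26 genes of the red cell membrane, surface and carbonic anhydrases and none of 18 maturation genes did. The 4 pairs concerned were all marked, beside 91.8% of all pairs. Urod, an enzyme of heme synthesis, shared a span of 860 bp with the ubiquitin ligase gene Hectd3. Iscu, the scaffold of iron-sulphur cluster assembly, paired with Sart3, had 9.01 and 12.7.

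At both transcription factor pairs the domain lay to one side. E2f4, a cell cycle factor, is paired with Exoc3l at 697 bp and had 10.6 and 12.1, with the domain running 1982 and 2466 bp into E2f4 and stopping 39 and 77 bp short of the 5' end of Exoc3l. Stat5b/Stat5a, the signal transducers downstream of the erythropoietin receptor, had 7.83 and 16.5, which differ by more than 2-fold. Their domain reached 2984 and 2612 bp into Stat5a and ended 918 and 873 bp short of the 5' end of Stat5b. It began inside Stat5a, at position 100859922 in replicate 1 and 100859877 in replicate 2, while the 5' end of Stat5a is at 100859351. At neither of these pairs did a peak cover a 5' end in any replicate. Transcripts that start elsewhere in these genes were not used here.

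Of 88 DNA repair genes, 31 lay in a pair (35.2%, against 6.90% of all genes), and all 32 pairs that hold one were marked. Their values ran from 8.48 (Pinlyp/Xrcc1) to 26.9 (Rad17/Ak6 and Rad17/Taf9, which share a region) in replicate 1. Fkbp3/Fancm, with a Fanconi anaemia helicase gene, had 19.6 and 19.8, and Wrn/Purg, with the Werner helicase gene, had 17.4 and 20.6. The 9 pairs with a gene of DNA replication or the cell cycle were also all marked. Dbf4, the activator of the Cdc7 kinase, paired with Slc25a40, had 21.7 and 19.4, and Orc6, of the origin recognition complex, paired with Vps35, had 18.2 and 19.4. The share of marked pairs over the whole set was 91.8%, so full marking of a short list is near the background.

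Of 116 oxidative phosphorylation genes of the mitochondrion, 36 lay in a pair (31.0%, against 6.90% of all genes), and all 36 pairs were marked. Emc8/Cox4i1 led them, followed by Esf1/Ndufaf5, with an assembly factor of complex I, at 21.0 and 24.1. Tepsin/Ndufaf8 had the lowest mean value of any marked pair, at 3.59 and 4.83. Of 78 mitochondrial ribosomal protein genes 21 lay in a pair (26.9%), and of 34 tRNA synthetase genes 8 did (23.5%). The 20 pairs with a mitochondrial ribosomal protein gene and the 8 with a tRNA synthetase gene were all marked. For these lists, too, full marking is near the 91.8% over all pairs. Lyrm4/Fars2, with the mitochondrial phenylalanyl-tRNA synthetase gene, had 22.7 and 18.3, and Ncapd2/Mrpl51 had 18.6 and 16.9.

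Counts of marked pairs here are read beside the 91.8% over all pairs. Pairs held 24.7% of 93 splicing genes, 15.5% of 84 cytosolic ribosomal protein genes, 9.72% of 144 proteasome and ubiquitin genes and 16.0% of 81 chaperone genes. The share over all genes was 6.90%. All 23 pairs with a splicing gene were marked. Gucd1/Snrpd3 at 15.2 and 23.5 and Ttc9c/Hnrnpul2 at 25.7 and 13.3 both differed widely between the replicates. Hnrnpa2b1/Cbx3, whose human counterpart is known as a ubiquitous chromatin opening element, had 22.5 and 13.5. Of 13 pairs with a cytosolic ribosomal protein gene 12 were marked, and Rps28/Ndufa7 had 18.1 and 18.2. Of 14 pairs with a proteasome or ubiquitin gene 13 were marked, with Smim14/Ube2k at 20.0 and 18.9. Peg3/Usp29 was the exception. Of 12 pairs with a chaperone gene 10 were marked, and the unmarked ones were the stress-inducible Hspa1a with Hspa1l, and Slc30a3/Dnajc5g.

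Of 138 homeobox, forkhead and related genes 4 lay in a pair (2.90%, against 6.90% of all genes), all marked and all forkhead genes (Foxj3, Foxm1, Foxa3 and Foxh1). Rhno1/Foxm1, with a cell cycle regulator, had 21.4 and 17.6. No collagen gene of 44 and no keratin or protocadherin gene of 145 met the rule. Of 464 zinc finger genes 26 did (5.60%), in 21 pairs of which 20 were marked. The marked share of all pairs was 91.8%. The pair Zfp944/Zfp758 joins 2 of them at 2 bp and had the highest mean value of all pairs, at 35.0 and 22.5.

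Histone pairs stood apart in shape. Replication-dependent histone genes are the group with the largest share in pairs among the lists, 26 of 64 (40.6%), and each of their 13 pairs holds a histone gene on either side. Of these pairs 10 were marked, beside 91.8% of all pairs. Their median value was 10.9 and 7.50, below the 13.4 and 14.0 of all marked pairs in both replicates. Their median domain was 4260.5 and 4632 bp wide, against 2683.5 and 2649 bp. H2bc23/H2ac23, H2ac24/H4bc24 and H2bc1/H2ac1 had no peak in either replicate. Histone genes are near-identical copies in clusters, and reads that map to several copies could be lost or split, so their values are uncertain.

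Of the 5 most one-sided domains, 3 were at histone pairs. At H2ac8/H2bc8 the widest domain ran 6042 and 6012 bp into and past H2bc8, but the strongest peak lay on the other side, 440 and 449 bp inside the 5' end of H2ac8, and was parted from that domain by a gap just over the 1000 bp that are joined. Both sides of this pair were therefore marked. At H2ac15/H2bc15 the widest domain ran 5280 and 4846 bp on the side of H2ac15, and a weaker peak stood apart on the side of H2bc15, 437 and 458 bp beyond its 5' end. Peaks outside the widest domain were found in only 5 of the 686 marked pairs in each replicate. At H2bc13/H2ac13 the domain ran 6593 and 6594 bp on the side of H2ac13. These genes are short and lie in clusters, and how much of such an arm belongs to a neighbouring gene was not tested. The other 2 were Ndufb1/Cpsf2, with 5592 and 5371 bp into the cleavage factor gene Cpsf2, and Ppp1r15a/Plekha4, with 4968 and 4957 bp on the side of Ppp1r15a, a regulator of the integrated stress response.

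Outside the textbook list the highest values belonged to pairs of varied function. After Zfp944/Zfp758, Emc8/Cox4i1 and Pcna/Cds2 came Dhrs1/Nop9 (23.5 and 28.3), Lrrc42/Hspb11 (22.8 and 28.0) and the Rad17 region (26.9 and 23.0). Drap1/AI837181, with a transcriptional corepressor gene, had 19.6 and 28.1. 1110059G10Rik/Kif15, with a mitotic kinesin gene, had 27.2 and 19.9, and Gnl3/Pbrm1, with a chromatin remodeller gene, had 26.1 and 20.6. The replicates ranked single pairs loosely. Over the 686 marked pairs log2 values correlated between the replicates with a Pearson r of 0.467, and 20 pairs differed by more than 2-fold. Widths were far more repeatable, with a correlation of 0.924 over the same pairs.

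The widest domain lay at Rhof/Setd1b, 9829 and 9945 bp, and it ran 6788 and 6850 bp into Rhof. Setd1b itself encodes an H3K4 methyltransferase. H2bc13/H2ac13 followed with 8524 and 8367 bp. Pafah1b2/Sik3 had 6998 and 7061 bp, spread 3694 and 3716 bp to one side and 3173 and 3214 bp to the other. Cbx5/Hnrnpa1, with the gene of a heterochromatin protein, had 6045 and 6784 bp. Atp7b/Alg11, with a copper transporter gene, differed most between replicates among the 10 widest, at 7232 and 5216 bp. The others of the 10, D17H6S56E-5/Vars, Ndufb1/Cpsf2, Tshz1/Zadh2, Atpif1/Dnajc8 and Rps18/Vps52, lay between 6028 and 7170 bp. At the other end, Gm3417/9030025P20Rik had 281 and 241 bp and Lsr/Fam187b had 258 and 264 bp.

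Among the 57 pairs without a peak in either replicate, and named after their values were seen, are Duox2/Duoxa2, the hydrogen peroxide generator of the thyroid with its maturation factor, and Kirrel2/Nphs1, of the kidney slit diaphragm. Smc1b/Ribc2 holds a meiotic cohesin gene, Mlc1/Mov10l1 a germ line helicase gene, Olfr181/Olfr183 a pair of odorant receptors, and Mup15/Mup-ps12 and Mup19/Mup-ps16 major urinary protein genes. The imprinted pairs Peg3/Usp29 and Sgce/Peg10 were also unmarked, at 97 and 102 bp. The nearest peak to the 5' ends of an unmarked pair lay at a median of 24504 bp in replicate 1 and 18969 bp in replicate 2.

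Some unmarked pairs had a peak elsewhere in their genes. In 18 of the 57 a peak overlapped the body of either gene in both replicates, and in 33 none did in either replicate. Ctnnd1/Btbd18, with the gene of p120 catenin, had a peak of 20.4 and 12.6 within its genes, 7499 and 7289 bp or more from the 5' ends. Tango2/Arvcf had one of 14.7 and 17.7, Deaf1/Eps8l2 one of 11.7 and 14.8 and Angel1/Lrrc74a one of 11.9 and 9.14. The annotation used here gives each gene only its outermost 5' end, so whether such peaks lie at other start sites of these genes was not tested.

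The unmarked pairs with the shortest spacing were Smpd2/Ppil6 at 1 bp, Il17rb/Chdh at 5 bp, Gm26650/Gm10410 at 10 bp, Ccdc148/Pkp4 at 22 bp and Trpc5/Rtl4 at 29 bp. Best1/Rab3il1 at 36 bp, Deaf1/Eps8l2 and Angel1/Lrrc74a at 42 bp, and Fam217a/4933417A18Rik and Tmie/Als2cl at 47 bp came next. At Ccdc148/Pkp4, whose CpG-rich span is printed above, no peak was closer than 585725 bp in replicate 1 and 435550 bp in replicate 2. Unmarked pairs had a median spacing of 157 bp over all 61 that were not marked in both replicates, against 98.5 bp over marked pairs.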

How the data were processed

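The authors deposited called peaks of each replicate on mm10 (GRCm38). Per the file notes deposited beside them, each set comes from that replicate's own alignments. Aligner, peak caller and threshold are not given in the sources used here. As deposited by the authors, the signal value per peak has no stated scale and is called the enrichment value. The −log10 p and −log10 q values deposited with each peak served only as filters in alternatives. Only autosomes and the X and Y chromosomes entered.

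Gene 5' ends came from a RefSeq table of GRCm38, with 1 outermost 5' end per gene. Strand came from the RefSeq promoter table for 17491 genes and from GENCODE M1 by symbol for 3647 and by synonym for 394. The other 351 of 21883 genes had none and were left out. A pair was marked when a peak of each replicate overlapped its region by at least 1 bp. Its value is the highest among those peaks, and its domain is the longest chain of peaks with neighbours no more than 1000 bp apart. CpG and words were read from the promoter entry nearest to the 5' end, which lay within 250 bp for 1117 genes of pairs and 11739 isolated genes.

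The members and gene lists were chosen with earlier results of these data known, so no set was tested. Named pairs are the textbook and red cell pairs, the highest, widest and most one-sided, the closest unmarked, those marked in 1 replicate, those nearest to 1000 bp, and the top 2 of each list. Other pairs were picked after their values were seen. Some pairs that the rule names are not reported here. The scripts were tested on simulated peaks. Python 3.11.15, numpy 2.4.6, pandas 2.3.3, scipy 1.17.1 and matplotlib 3.10.9 were used. Alternatives changed spacing, window, peak threshold, gap, isolation distance, peak set and annotation, or left out a replicate or the histone pairs.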

Additional observations from a re-analysis of the deposited data

How the results depend on the processing

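Across 19 alternatives the number of marked pairs ran from 574 of 616 pairs to 727 of 808 (686 of 747 as reported). The number of pairs itself thus changed with the setting. Only the lead of genes of pairs and the lead of their arms have a direction, and neither reversed in 20 alternatives. The former moved by more than the spread between the replicates in 17 of the 20, and the latter in 10. The lead of genes of pairs over isolated genes was 50.9 points as reported. It was 52.7 and 52.4 with a largest spacing of 500 and 300 bp, 51.7 and 49.9 with windows of 500 and 2000 bp, and 51.2 and 51.9 with a minimum −log10 q of 2 and 5. It was 53.9 with the 20000 strongest peaks, 50.5 and 51.6 with isolation of 2500 and 10000 bp, 50.4 with the pooled and 51.03 with the replicated set, and 51.2 without histone pairs. It was 51.1 with the older mm9 set and lay between 50.68 and 50.69 without a replicate. Chosen after seeing the data were the starts of the promoter table, which gave 49.96, a window around the midpoint, and CpG-rich promoters alone, which gave 26.8. The median value was 3.61 in the mm9 set, whose scale may differ. The median width was 2582 and 2522.5 bp with a minimum −log10 q of 5 and the 20000 strongest peaks, 1481 and 2808 bp with gaps of 0 and 3000 bp, and 2739.5, 2707.5 and 2496 bp in the pooled, replicated and mm9 sets. Isolated genes at a gap of 0 had 1359 bp. The share of pairs with both 5' ends under 1 peak (20.7%) was 33.9% in the pooled and in the replicated set, 92.2% in the mm9 set, and ran from 22.9% to 34.5% without a replicate. The cause was not tested. The lead of the arms of pairs over the upstream arm of isolated genes, 542 bp, ran from 381 bp in the mm9 set to 932 bp at a gap of 0. At a gap of 0 the arms come from the widest peak alone, so that lead is not a like measure. No paired analysis was possible because both samples belong to 1 group and there is no second group to pair them with, while pairs and isolated genes were compared within each replicate. Depth is unknown, so an unmarked pair is one without a called peak, not one shown to lack the mark.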
